A study of Mus musculus with 8 samples.

Results

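Embryos lacking the transcription factor Runx1 were compared with wild-type embryos at embryonic day 12 (E12), using the 2 wild-type and the 2 Runx1 knockout arrays of that stage out of 8 arrays in the series. The other 4 arrays hold the same genotypes at E8.5. They entered the shared estimate of the spread, the choice of the probe set that stands for a gene, the comparison between stages and some alternative settings. All animals were kept on a BALB/c background. The study names mouse embryo propers, that is, embryos without placenta and yolk sac, as the source of the RNA. The wild-type group had Runx1 intact and the knockout group lacked it from conception in every tissue, so the loss was not restricted to blood cells. The study describes the 2 replicates of a group as biological ones, and whether an array held RNA of 1 embryo or of several is not given in the sources used here. P-values therefore measure the spread between these samples.

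Runx1 binds DNA with its partner Cbfb and is needed for the step at which blood stem and progenitor cells bud from the endothelium of the embryo. That step starts the definitive wave of blood formation, which seeds the fetal liver and supplies platelets, macrophages, granulocytes, definitive red cells and later lymphocytes. An earlier, primitive wave in the yolk sac makes large nucleated red cells that carry embryonic globins, together with the first macrophages and megakaryocytes. Primitive red cells are known to form without Runx1, and embryos without it die in midgestation with bleeding and without definitive blood. In RNA of whole embryos, fewer cells of a type and less RNA per cell cannot be told apart.

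Across all genes the 4 E12 arrays were alike in their middle and differed at the top. Median log2 intensity lay between 5.16 and 5.20 and the 99th percentile between 10.51 and 11.09. Over probe sets, which are not independent of each other, r was 0.992 between the knockout replicates and 0.965 between the wild-type replicates. Of 18193 genes, 821 read at least 1 log2 apart in the wild-type replicates and 15 in the knockout replicates. In 680 of the 821 wild type replicate 1 was the lower array. Xist, which silences an X chromosome in females, read 10.33 in knockout replicate 2 and 5.12 to 5.33 in the other 3 arrays, and the Y-linked Eif2s3y read 2.68 there against 6.30 to 8.22. By these genes knockout replicate 2 was female and the other 3 arrays were male, and the labels give no sex. The 3' to 5' log2 difference was 1.43 to 1.84 for the actin control and 2.20 to 2.65 for GAPDH, overlapping between the genotypes. Tpbpa, a trophoblast gene, read 4.91 to 5.16 in all 4 arrays, while Alb, Afp and Dcx, genes of liver and young neurons, were well above the array median. In the E8.5 arrays, which enter the shared spread, Tpbpa read 9.52 in wild type replicate 1 and 4.15 to 4.24 in the others. Tissue from outside the embryo in that E8.5 array was not tested. The brightest Runx1 probe set read 7.06 and 6.39 in wild type against 7.10 and 6.86 in knockout, and 3 of the 6 Runx1 probe sets had this direction. Leaving out wild type replicate 2 turned its difference to -0.08. The sources used here do not place these probes against the deletion, so they check nothing about the labels.

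The differences that passed the adjusted test were losses of blood genes. Limma called 6 of 45037 probe sets at a Benjamini-Hochberg adjusted p below 0.05, all of them lower in knockout. With 1 probe set per gene (the brightest), 5 genes were called lower, which is 0.0275% of the 18193 tested, and 0 were called higher, which is 0.0%. At an unadjusted p below 0.05 there were 412 genes. The study itself used a moderated t beyond 3 in either direction, uncorrected for the number of tests, and by that rule 133 genes (0.731%) were lower and 44 (0.242%) were higher. Of these, 56 of the 133 lower and 1 of the 44 higher genes were in blood lists. In all 177 the 2 groups did not overlap. Such separation by itself was common, as 3379 genes (18.6%) were lower without overlap and 2186 (12%) higher, so it carries little information here. A stricter rule asked for a gap of at least 1 log2, a 2-fold step, between the nearest arrays of the 2 groups. It was met by 52 genes that were lower (0.286%) and by 1 that was higher (0.0055%). For 1 gene on its own, 2 arrays against 2 cannot give an exact permutation p below 0.333. The median difference over all genes was -0.0063 and 51.2% of genes were lower by sign.

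Of the 52 genes with a gap, 38 (73.1%) belonged to the 18 lists of blood genes, which held 354 measured genes or 1.95% of all. The lists were chosen with earlier results of these data known, so this share is a description and not a test. Of the 354 blood genes, 270 were lower by sign, 56 were lower past an absolute t of 3 and 1, Rag1, was higher past it. None of the 354 was higher with a gap. Of the 52 genes, 38 also passed the t threshold. The other 14 did not, with a spread shared over both stages. They were Itgb3, Klf1, Csf1r, Ikzf1, Adcy7, Tmem40, Clec1b, Srgn, Nfe2, Vwf, Kcnn4, Mrc1, Ermap and Vamp5. In the E12 arrays fitted alone all 52 had a moderated t below -3. The gap was chosen on these same arrays, so this t is no separate support for the 52 genes. The knockout mean lay below the array median of 5.20 in 33 of the 52, and the values used here come without detection calls, so a fold change of these genes may be understated. Counts rested on single arrays. Leaving out wild type replicate 2 gave 2131 probe sets past an absolute t of 3, of which 22.8% were lower, against 295 and 72.2% with all arrays. Leaving out wild type replicate 1 gave 445, of which 50.3% were lower. The number called fell to 0 without either E12 knockout replicate, to 1 without either E12 wild-type or either E8.5 knockout replicate, and was 12 without either E8.5 wild-type replicate. None of the 53 genes with a gap changed direction in any of 17 settings. The gap rule itself fixes the direction when an array is left out, so this is no separate support. Just outside the gap rule were 8 genes, Sphk1, Nckap1l, Lyz2, Pklr, Cited4, Alox12, Tal1 and 1700006J14Rik, whose nearest arrays differed by -0.996 (Sphk1) to -0.903 (1700006J14Rik). Just inside it were Slc35d3 and Slc14a1, at -1.03 and -1.04.

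**Figure D1:**
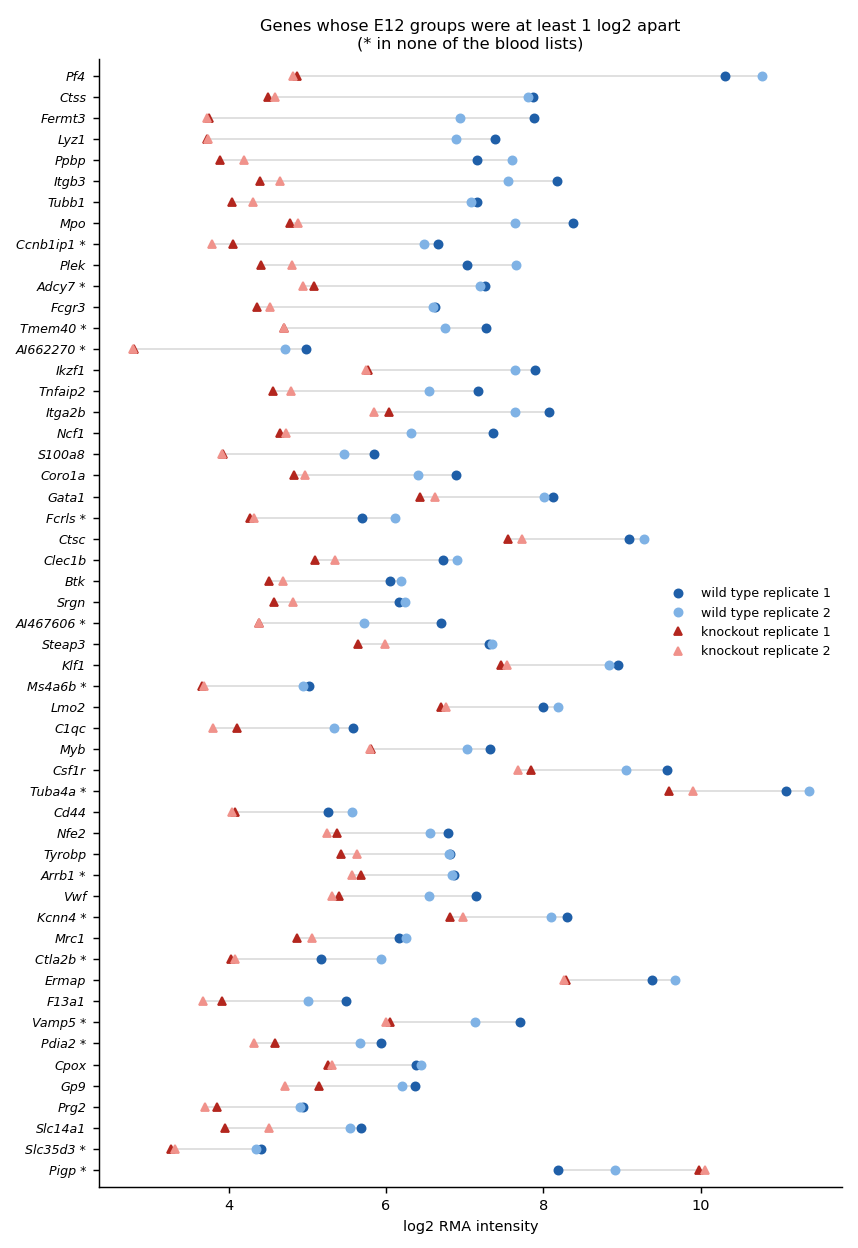
Log2 RMA intensity (x axis) of each of the 53 genes whose E12 groups were at least 1 log2 apart, with 1 circle per wild-type and 1 triangle per knockout array. Both knockout arrays lie to the left of both wild-type arrays for 52 genes, from Pf4 at the top with the widest gap to Slc35d3, and to the right for Pigp.

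For 4 of the genes with a gap, the part of the searched window that lies before the start is printed. The search was for the letters Runx1 and Gata1 recognise. Pf4 is shown as the gene with the largest difference, and Fermt3, Steap3 and C1qc as a leukocyte, a red-cell and a macrophage gene with RUNX letters before the start. The 250 bases end just before the transcription start and come from RefSeq (GRCm38.p6). They run 5' to 3' along the gene's strand, and capitals mark RUNX letters (TGTGGT or TGCGGT) and GATA letters (AGATAA or TGATAA) on either strand.
Pf4, chr5:90772185-90772434, plus strand: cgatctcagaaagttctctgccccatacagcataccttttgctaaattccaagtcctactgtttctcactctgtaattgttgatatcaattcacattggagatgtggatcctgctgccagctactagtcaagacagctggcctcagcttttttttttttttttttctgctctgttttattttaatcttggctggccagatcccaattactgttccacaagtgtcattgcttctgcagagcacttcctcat
Fermt3, chr19:7019470-7019719, minus strand: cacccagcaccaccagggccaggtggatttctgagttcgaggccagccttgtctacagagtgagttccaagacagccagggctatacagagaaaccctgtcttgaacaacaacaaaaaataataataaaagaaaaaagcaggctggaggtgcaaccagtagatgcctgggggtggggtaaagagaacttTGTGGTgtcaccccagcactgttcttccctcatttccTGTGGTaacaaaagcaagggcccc
Steap3, chr1:120271081-120271330, minus strand: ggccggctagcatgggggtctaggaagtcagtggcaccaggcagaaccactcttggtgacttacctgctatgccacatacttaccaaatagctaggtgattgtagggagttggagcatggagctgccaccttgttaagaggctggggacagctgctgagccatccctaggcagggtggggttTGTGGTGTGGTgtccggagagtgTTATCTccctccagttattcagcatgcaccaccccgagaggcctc
C1qc, chr4:136892915-136893164, minus strand: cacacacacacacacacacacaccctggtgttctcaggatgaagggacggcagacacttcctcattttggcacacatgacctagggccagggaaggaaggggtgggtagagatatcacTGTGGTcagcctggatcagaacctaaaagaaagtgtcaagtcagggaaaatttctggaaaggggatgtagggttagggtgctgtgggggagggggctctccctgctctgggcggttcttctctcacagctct
The 2 runs of RUNX letters before Steap3 overlap by 1 base. A window of 300 bases, from 250 before to 50 after the first start RefSeq lists, was found for 14452 of the measured genes. RUNX letters stood in 21.2% of these windows and GATA letters in 12.8%. Among the 52 lower genes with a gap, 42 had a window, of which 11 (26.2%) held RUNX letters and 10 (23.8%) GATA letters. Of the 5 called genes 0 held RUNX letters and 2 held GATA letters. In Pf4 the GATA letters stood at 36 to 41 past the start, outside the printed bases. Such short runs of letters are common by themselves, so a match describes the sequence and is not a binding site.

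The platelet lineage held the widest difference of all. Pf4, a chemokine stored in the granules of platelets and megakaryocytes, read 10.31 and 10.79 (log2) in the wild-type arrays and 4.86 and 4.82 in the knockout arrays. It fell by 5.71 (SE 0.20, limma adjusted p = 0.00176), a 52.2-fold difference. Its reading stood at percentile 98.7 and 98.6 of all probe sets in wild type and at 41.5 and 40.2 in knockout. Ppbp, the other major platelet chemokine, read 7.16 and 7.60 against 3.89 and 4.19 and fell by 3.34 (SE 0.23, limma adjusted p = 0.0325). Tubb1, the beta tubulin of the platelet's marginal band, read 7.16 and 7.08 against 4.04 and 4.31 and fell by 2.95 (SE 0.21, limma adjusted p = 0.0327). In each of these 3 genes the groups lay several times farther apart than the replicates. The call of Pf4 was lost without either E12 knockout replicate (limma adjusted p = 0.109 and 0.114). The calls of Ppbp and Tubb1 were lost in E12 arrays alone (limma adjusted p = 0.0614 for each) and when any single array but an E8.5 wild-type one was left out (up to 0.800 and 0.808).

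Other granule proteins were lower without passing the adjusted test. F13a1, the coagulation factor XIII subunit that platelets and macrophages carry, read 5.49 and 5.01 in wild type against 3.91 and 3.67 in knockout (t = -6.94). Vwf, which tethers platelets to a damaged vessel wall and is also made by endothelium, read 7.15 and 6.54 against 5.41 and 5.31 (t = -2.03). Srgn, the granule proteoglycan, read 6.17 and 6.24 against 4.57 and 4.82 (t = -1.08). Vwf and Srgn did not pass an absolute t of 3 either. Of 12 granule and secreted proteins measured, 11 were lower by sign, 3 past an absolute t of 3 and 5 with a gap, and the median difference was -0.43. Set against 1 wild-type array at a time, it was -0.80 for replicate 1 and -0.36 for replicate 2, and in later lists these 2 values follow the median in that order. Clu, Sparc and Timp3, which many tissues also make, differed by -0.31, -0.20 and 0.00 and their groups overlapped.

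Surface receptors of megakaryocytes and platelets followed the same direction in 15 of 17 genes, with 3 past an absolute t of 3, 4 with a gap and a median difference of -0.30 (by replicate -0.53 and -0.36). The 2 chains of the fibrinogen receptor were both far lower. Itga2b read 8.07 and 7.63 in wild type against 6.03 and 5.85 in knockout (difference -1.91, SE 0.34), and Itgb3 read 8.18 and 7.55 against 4.40 and 4.65 (difference -3.33, SE 1.29). The large SE of Itgb3 came with E8.5 arrays between 3.79 and 9.74. Gp9, a part of the receptor for von Willebrand factor, read 6.37 and 6.20 against 5.14 and 4.72 (t = -6.00). Clec1b, the podoplanin receptor that seals blood from lymph vessels, read 6.72 and 6.90 against 5.10 and 5.35 (t = -2.79). F2rl2, a thrombin receptor of platelets, read 6.33 and 6.04 against 5.36 and 5.39 (t = -5.11). F2r, a thrombin receptor that many other cells share, read 10.54 and 11.38 against 10.99 and 11.15, and its groups overlapped.

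Inside the cell, Plek, a substrate of protein kinase C in platelets and leukocytes, read 7.03 and 7.65 in wild type against 4.41 and 4.81 in knockout (t = -6.67). Nfe2, a transcription factor needed to shed platelets, read 6.79 and 6.56 against 5.38 and 5.26 (t = -2.24). Gfi1b, a repressor of megakaryocyte and red-cell precursors, read 6.87 and 6.40 against 5.58 and 5.16 (t = -4.25). Alox12, the platelet lipoxygenase, read 5.60 and 5.49 against 4.58 and 4.55, and Rab27b, which moves platelet granules, 5.46 and 5.89 against 4.66 and 4.81. Only 1 of the 2 Alox12 probe sets was lower. Altogether 15 of 18 intracellular genes of the lineage were lower by sign, 5 past an absolute t of 3 and 3 with a gap (median -0.40, by replicate -0.60 and -0.32). Fli1 and Mef2c, transcription factors of megakaryocytes that endothelium or muscle also use, differed by -0.14 and 0.07 and their groups overlapped.

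Macrophage genes were the other large group. Ctss, a lysosomal protease of macrophages, read 7.86 and 7.80 in wild type against 4.50 and 4.59 in knockout, and fell by 3.29 (SE 0.15, limma adjusted p = 0.00537). Lyz1, a lysozyme, read 7.39 and 6.89 against 3.72 and 3.74 and fell by 3.41 (SE 0.25, limma adjusted p = 0.0335). The call of Ctss was lost when any single array but an E8.5 wild-type one was left out (limma adjusted p = 0.0682 to 0.272). That of Lyz1 was lost in the same way (up to 0.844) and also in E12 arrays alone (0.0614), with quantile normalization (0.0577), with 16 added before log2 (0.0729) and over the mean of its probe sets (0.0586, difference -2.03). Another Lyz1 probe set differed by -2.72 and the last, dim in all 4 arrays, by 0.04. The near-identical Lyz2, the lysozyme of macrophages, read 6.59 and 6.39 against 5.43 and 5.09, and the 2 genes may share signal. Sla, an adaptor that dampens antigen-receptor signalling and was named after its values were seen, had 1 probe set that read 6.35 and 6.10 against 3.77 and 3.55 and fell by 2.57 (SE 0.17, limma adjusted p = 0.0325). The brightest Sla probe set read 5.33 and 4.76 against 5.18 and 5.21, so the probe sets of this gene disagreed.

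Among 30 lysosomal and phagocyte enzymes, 25 were lower by sign, 10 past an absolute t of 3 and 5 with a gap (median -0.49, by replicate -0.49 and -0.68). Ctsc, the protease that activates granule enzymes, read 9.09 and 9.27 in wild type against 7.56 and 7.73 in knockout. Ncf1, a subunit of the phagocyte oxidase, read 7.36 and 6.32 against 4.66 and 4.73, and 2 of its 3 probe sets were lower. Mpeg1, a pore-forming protein of macrophages, read 7.22 and 6.89 against 6.06 and 5.46. Apoe, which macrophages share with liver and glia, read 7.75 and 7.83 against 6.38 and 7.01. Ctsl and Ctsk, proteases that many tissues express, were 0.22 and 0.30 higher and did not pass an absolute t of 3.

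Fc receptors and complement had the largest share past the study's threshold, 7 of 12 genes, with 10 lower by sign, 3 with a gap and a median of -0.74 (by replicate -0.85 and -0.62). Fcgr3, a receptor for immunoglobulin G, read 6.62 and 6.59 in wild type against 4.35 and 4.52 in knockout (t = -8.16). Tyrobp, the signalling partner of several myeloid receptors, read 6.81 and 6.80 against 5.43 and 5.63 (t = -8.10). The 3 chains of complement C1q, made by tissue macrophages, were lower together. C1qa read 5.70 and 5.27 against 4.49 and 4.62, C1qb 6.05 and 5.26 against 4.51 and 4.55, and C1qc 5.58 and 5.33 against 4.11 and 3.81. C3ar1, the receptor of a complement fragment, read 5.39 and 5.04 against 4.34 and 4.33. Fcgr2b and Cfp were 0.10 and 0.05 higher, with groups that overlapped.

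Receptors and surface proteins of macrophages gave a smaller shift, with 18 of 26 lower by sign, 2 past an absolute t of 3, 2 with a gap and a median of -0.13 (by replicate -0.28 and -0.10). Csf1r, the receptor for the growth factor of macrophages, read 9.57 and 9.05 in wild type against 7.85 and 7.68 in knockout (difference -1.55, SE 0.61), and all 3 of its probe sets were lower. Mrc1, the mannose receptor, read 6.16 and 6.26 against 4.86 and 5.05 (t = -1.91). Cx3cr1, the fractalkine receptor of microglia and monocytes, read 6.0 and 5.83 against 4.92 and 4.94 (t = -6.36), and Clec7a, a receptor for fungal glucan, 5.67 and 5.21 against 4.23 and 4.59. Adgre1, a classical macrophage surface antigen, read 6.74 and 5.93 against 5.54 and 5.56 and just missed the t threshold (t = -2.93). In Timd4, Cd163, Tlr2 and Siglec1, other receptors of macrophages, the groups overlapped.

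Genes shared by most leukocytes were lower in 38 of 46 cases, with 9 past an absolute t of 3, 3 with a gap and a median of -0.31 (by replicate -0.46 and -0.24). Fermt3, the kindlin that activates integrins in blood cells, read 7.88 and 6.95 in wild type against 3.75 and 3.73 in knockout (difference -3.68, SE 0.78), and all 4 of its probe sets were lower. Btk, a kinase of B cells, myeloid cells and platelets, read 6.05 and 6.19 against 4.52 and 4.69 (t = -9.69). Coro1a, an actin regulator of leukocytes, read 6.88 and 6.40 against 4.83 and 4.98 (t = -6.97), and Itgb2, the beta chain of the leukocyte integrins, 6.73 and 6.09 against 5.29 and 5.41. Ptprc, which encodes CD45, read 4.69 and 4.75 against 4.62 and 4.51, below the median of every array.

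Granulocyte genes split between a few wide differences and a majority that read low throughout. Mpo, the myeloperoxidase of neutrophil and monocyte precursors, read 8.38 and 7.63 in wild type against 4.78 and 4.88 in knockout. Its difference of -3.18 (SE 0.26) lay just outside the adjusted threshold, at limma adjusted p = 0.0553. S100a8, a calcium-binding protein of neutrophils, read 5.85 and 5.47 against 3.92 in both knockout arrays (t = -6.06). Prg2, the major basic protein of eosinophils, read 4.95 and 4.90 against 3.85 and 3.70, and Prtn3, proteinase 3, read 6.24 and 5.71 against 5.05 and 5.11. Elane, neutrophil elastase, read 6.01 and 5.24 against 5.75 and 5.62, and its groups overlapped. In all, 17 of 21 granule genes were lower by sign, 4 past an absolute t of 3 and 3 with a gap (median -0.23). By replicate the median was -0.32 and -0.04. Both knockout arrays lay below wild type replicate 1 in 17 of the 21 and below replicate 2 in 10. These shares were not computed over all genes.

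Genes of lymphocytes and mast cells separated the genotypes less. Their median wild-type level was 4.67 (B lineage), 4.66 (T and natural killer cells) and 4.98 (mast cells and basophils). These levels lay below the median of every E12 array. Whether a fall could be seen in these lists at such levels was not tested. The granulocyte gene Prg2 fell from a like level, 4.95 and 4.90, to 3.85 and 3.70. Of 19 B-lineage genes 12 were lower by sign and 0 past an absolute t of 3, with a median of -0.05 (by replicate -0.16 and 0.08). Rag1, which cuts antigen-receptor genes, passed in the other direction, at 3.97 and 3.78 in wild type against 4.31 and 4.44 in knockout, all 4 below the array median. Of 20 T and natural killer genes 13 were lower by sign and 0 passed (median -0.02, by replicate -0.15 and 0.04), and Lat, an adaptor of T cells that platelets and mast cells also use, had the highest absolute t, at 6.34 and 5.75 against 5.58 and 5.21 (t = -2.55). Of 14 mast-cell and basophil genes 8 were lower and 0 passed (median -0.03, by replicate -0.12 and 0.04). Gzmb, a granule protease, and Slc18a2, the monoamine transporter of mast-cell granules, had the highest absolute t of that list, with differences of -0.24 and 0.21, and the mast-cell protease Cpa3 read 5.29 and 4.80 against 4.98 and 4.60. Myeloid transcription factors had a median of -0.20, but 0 of 17 passed and wild type replicate 2 lay with the knockout arrays: the median was -0.35 against replicate 1 and -0.02 against replicate 2. Spi1, the master factor of the lineage, read 5.59 and 5.21 against 5.10 and 5.29, and Irf8 5.25 and 4.62 against 4.56 and 4.60. Cebpb, a factor of macrophages and liver, read 5.15 and 5.05 against 4.48 and 4.55, and Nkg7, a granule gene of natural killer cells, 4.49 and 4.24 against 4.07 and 4.09.

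**Figure D2:**
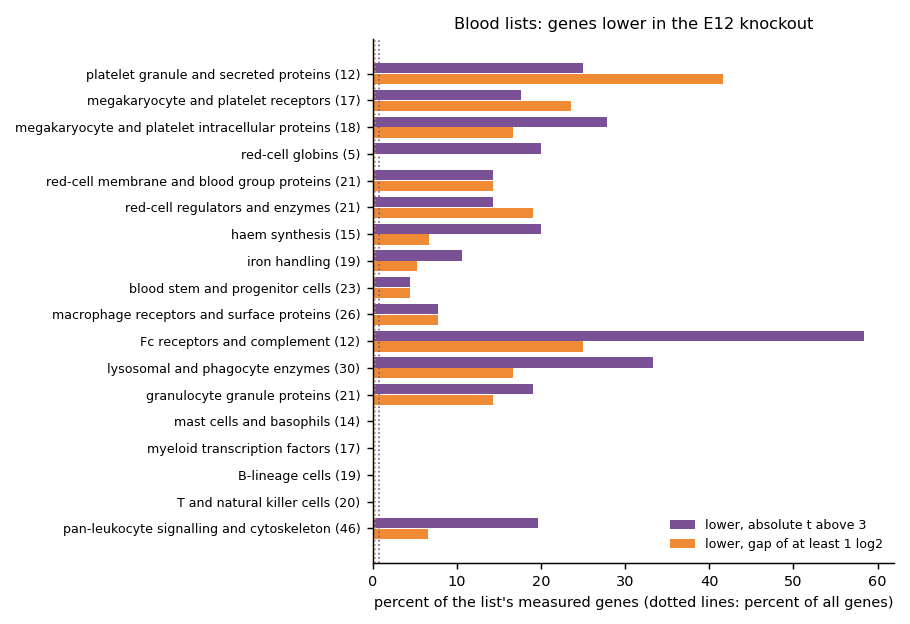
Percent of each blood list's measured genes (numbers in brackets) that were lower in the E12 knockout, past an absolute t of 3 or with a gap of at least 1 log2. Fc receptors and complement reach 58.3% by the first rule and platelet granule proteins 41.7% by the second, while 4 lists (mast cells, myeloid transcription factors, B-lineage and T and natural killer cells) stand at 0 by both rules; the dotted lines mark 0.731% and 0.286% of all genes.

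Red cells gave a divided picture between embryonic globins and some of the genes that regulate red-cell precursors. The 3 embryonic globins, which primitive red cells make, read above the 99th percentile of each array, and the knockout arrays lay between the wild-type replicates in each. Hbb-bh1 read 11.86 and 13.19 in wild type against 12.63 and 12.73 in knockout. Hbb-y read 12.60 and 13.34 against 12.91 and 13.07, and Hba-x read 11.30 and 12.73 against 12.03 and 12.07. Their differences of 0.15, 0.02 and 0.04 turned negative without wild type replicate 1, and that of Hbb-y also without knockout replicate 2 and with quantile normalization. Hbb-b2, an adult beta globin of definitive red cells, was lower, at 6.39 and 6.49 against 5.36 and 5.76 (difference -0.88, SE 0.19, t = -4.77). It and its neighbours are near-identical in sequence, so the probes may not tell them apart. The adult Hba-a1 read 5.04 and 4.92 against 4.90 and 5.31.

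Of 21 regulators and enzymes of red-cell precursors 18 were lower by sign, 3 past an absolute t of 3 and 4 with a gap (median -0.44, by replicate -0.32 and -0.82). Gata1, required for red cells and megakaryocytes, read 8.13 and 8.0 in wild type against 6.43 and 6.62 in knockout (difference -1.54, SE 0.23, t = -6.66). Klf1, which switches on adult globin, read 8.94 and 8.84 against 7.46 and 7.54 (difference -1.39, SE 0.57). Lmo2, which bridges the blood factors on DNA, read 7.99 and 8.19 against 6.70 and 6.77, and Myb, needed for definitive but not primitive red cells, read 7.32 and 7.03 against 5.81 and 5.80. Tal1, another core factor, read 7.43 and 7.70 against 6.38 and 6.52, and Epor, the erythropoietin receptor, 6.79 and 6.82 against 6.03 and 6.05. In each of these 6 genes the replicates lay nearer to each other than to any array of the other genotype. Gata1, Lmo2 (t = -3.29) and Myb (t = -3.21) passed an absolute t of 3, and Klf1 (t = -2.44), Epor (t = -2.86) and Tal1 (t = -1.33) did not. Bpgm and Prdx2, enzymes abundant in mature red cells, differed by 0.02 each, with knockout arrays between the wild-type replicates.

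Membrane and blood group proteins were lower by sign in 18 of 21 genes, with 3 past an absolute t of 3, 3 with a gap and a median of -0.48 (by replicate -0.25 and -0.46). Slc14a1, the urea transporter of red cells, read 5.69 and 5.55 in wild type against 3.95 and 4.51 in knockout. Ermap, an erythroblast membrane protein, read 9.38 and 9.68 against 8.29 and 8.27 (t = -1.80). Icam4, an adhesion protein of erythroblasts, read 7.55 and 8.29 against 6.84 and 6.86 (t = -4.14). Cd44, which is high in early erythroblasts and in leukocytes, read 5.27 and 5.57 against 4.09 and 4.04, with 3 of its 4 probe sets lower. Slc4a1, the band 3 anion exchanger of mature red cells, read 9.73 and 10.68 against 9.64 and 9.53, so its knockout arrays lay just below wild type replicate 1 and well below replicate 2. Tmod1, Add2 and Dmtn, parts of the membrane skeleton, differed by -0.10, -0.06 and 0.0092.

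Haem synthesis was lower by sign in 14 of 15 genes, with 3 past an absolute t of 3, 1 with a gap and a median of -0.38. Cpox, coproporphyrinogen oxidase, read 6.38 and 6.45 in wild type against 5.26 and 5.31 in knockout. Tmem14c, which moves the haem precursor into mitochondria, read 9.98 and 10.33 against 9.24 and 9.46, and Slc25a38, the glycine carrier, 7.57 and 7.59 against 6.77 and 6.97. Alas2, the first enzyme of the pathway in red cells, read 9.23 and 10.93 against 9.93 and 9.99, again with knockout between the wild-type replicates. The list's median was -0.17 against wild type replicate 1 and -0.72 against replicate 2. Among 19 iron genes 14 were lower by sign and 2 passed (median -0.11, by replicate -0.30 and -0.07). Steap3, the iron reductase of erythroblasts, read 7.31 and 7.35 against 5.65 and 5.99, and Tfr2, a sensor of iron-loaded transferrin, 7.03 and 6.71 against 6.26 and 6.08. Tfrc, the transferrin receptor, read 9.19 and 10.49 against 9.79 in both knockout arrays.

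**Figure D3:**
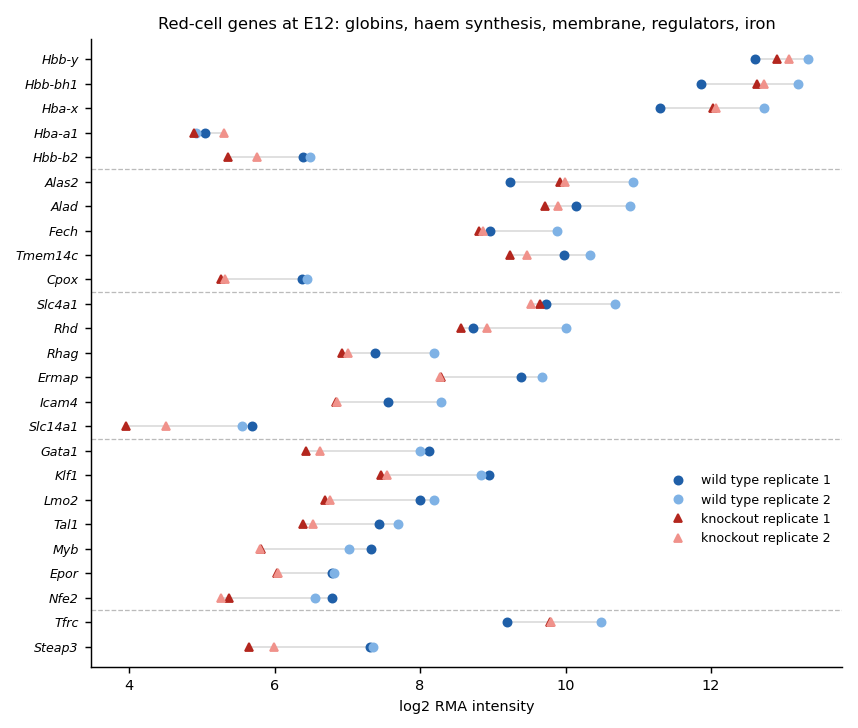
Log2 RMA intensity (x axis) of red-cell genes in each E12 array, grouped from top to bottom as globins, haem synthesis, membrane proteins, regulators and iron handling. The knockout triangles lie between the wild-type circles for Hbb-y, Hbb-bh1, Hba-x, Alas2 and Tfrc, and left of both for Gata1, Klf1, Lmo2, Tal1, Myb, Epor and Nfe2.

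Genes of blood stem and progenitor cells were close to balanced, with 13 of 23 lower by sign, 1 past an absolute t of 3, 1 with a gap and a median of -0.07 (by replicate -0.11 and -0.03). Ikzf1, the Ikaros factor of lymphoid and myeloid progenitors, read 7.90 and 7.64 in wild type against 5.77 and 5.74 in knockout (difference -2.01, SE 0.68, t = -2.95). Adgrg1, an adhesion receptor of stem cells that brain also expresses, read 6.55 and 6.22 against 5.63 and 5.78 (t = -3.67). Kit, the stem cell factor receptor, read 5.67 and 5.09 against 4.84 and 4.98, and Gata2 6.75 and 6.40 against 6.22 and 6.32. Myb, also a chosen marker of these cells, was counted with the red-cell regulators. It read 7.32 and 7.03 against 5.81 and 5.80. Cd34, Meis1, Mecom and Hlf, which endothelium, limb or brain also express, were 0.07 to 0.11 higher, with groups that overlapped.

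Tnfaip2, a gene of myeloid cells and endothelium that tumour necrosis factor induces, was among the 12 lower genes with the largest differences past an absolute t of 3, at 7.17 and 6.54 against 4.57 and 4.80. Ly86, a partner of a toll-like receptor on B cells and macrophages, read 5.98 and 5.60 against 4.98 and 4.57, and Cd53, a tetraspanin of leukocytes, 4.69 and 4.99 against 4.03 and 4.32. In these 3 genes both knockout arrays lay below both wild-type arrays. Over all probe sets of the gene, 2 of 3 were lower for Tnfaip2 and 1 of 2 for Cd53. The other 14 lower genes with a gap stood in none of the blood lists and are named here after their values were seen. Several are known from the same cells. Tmem40 read 7.27 and 6.75 in wild type and 4.71 in both knockout arrays (t = -2.73). Slc35d3, a transporter needed for platelet dense granules, read 4.41 and 4.35 against 3.27 and 3.31 (t = -4.79). Fcrls, an Fc receptor-like gene of microglia, read 5.70 and 6.12 against 4.27 and 4.33 (t = -8.62), and Ms4a6b, a membrane protein of leukocytes, 5.02 and 4.94 against 3.66 and 3.69. Kcnn4, the potassium channel of red cells and lymphocytes, read 8.30 and 8.09 against 6.82 and 6.98 (t = -1.54). Tuba4a, an alpha tubulin, read 11.08 and 11.37 against 9.60 and 9.90, and all 3 of its probe sets were lower. Adcy7, an adenylyl cyclase of blood cells, read 7.26 and 7.19 against 5.08 and 4.94 (t = -1.50). Ccnb1ip1, a ubiquitin ligase known from meiosis, had the largest difference outside the lists, at 6.66 and 6.49 against 4.06 and 3.79 (difference -2.65, SE 0.38, t = -6.97). AI662270, AI467606, Arrb1, Ctla2b, Vamp5 and Pdia2 differed by -1.23 to -2.06, and only 1 of the 2 AI467606 probe sets was lower.

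Tissues outside the blood showed 0 genes with a gap in any of 12 lists. Endothelium, from which blood cells bud, was lower by sign in 22 of 31 genes with a median of -0.11 (by replicate -0.26 and -0.06). Ephb4, a receptor of veins, was lower at 7.69 and 7.57 against 7.09 and 7.22 (t = -3.24), and Emcn, a surface mucin of veins and capillaries, was higher at 5.41 and 5.37 against 5.90 and 6.14 (t = 4.13). Cdh5, the cadherin of endothelial junctions, read 5.84 and 5.18 against 4.99 and 5.12, and Kdr, the main receptor for vascular growth factor, read 8.34 and 8.37 against 7.98 and 8.13. Pecam1 read 4.82 and 4.47 against 4.86 in both knockout arrays.

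Heart muscle was lower by sign in 23 of 26 genes, with a median of -0.27 (by replicate -0.37 and -0.17) and 0 genes past an absolute t of 3. The replicates spread as widely as the genotypes differed. The list's mean deviation was 0.25 and 0.04 in the wild-type arrays and -0.32 and 0.03 in the knockout arrays, so knockout replicate 2 stood next to wild type replicate 2. Nkx2-5, a cardiac transcription factor, came nearest to the threshold, at 7.13 and 6.87 against 6.39 and 6.59. Nppa, the atrial natriuretic peptide, read 7.74 and 7.54 against 6.29 and 7.61. Fetal liver genes showed the same instability. Alb read 10.13 and 10.33 against 10.46 and 11.26, Afp read 10.96 and 11.50 against 10.94 and 11.20, and the 31 genes had a median of -0.02 (by replicate -0.22 and 0.18) with 18 lower and 0 past the threshold. Replicate 2 minus replicate 1 had a median over the liver genes of -0.34 in wild type and 0.44 in knockout. Alb and F10, a clotting factor made in liver, had the highest absolute t, and F10 read 7.57 and 7.19 against 6.30 and 7.05.

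Skeletal muscle (median -0.11, 17 of 24 lower), cartilage (0.02, 10 of 22), limb and mesenchyme (-0.0019, 15 of 28), neural progenitors (-0.02, 13 of 26), neural crest (0.09, 7 of 18), surface epithelium (-0.02, 11 of 21), eye and lens (-0.04, 10 of 16) and kidney and gonad (0.01, 7 of 19) had 0 genes past an absolute t of 3 in either direction. All 8 medians depended on the wild-type array: each was below 0 by replicate 1 (-0.29 for skeletal muscle, -0.11 for cartilage and -0.03 to -0.17 for the others) and near or above 0 by replicate 2 (-0.0038 for skeletal muscle, 0.19 for cartilage and 0.04 to 0.14 for the others). In these lists the members with the highest absolute t differed by -0.49 (Mymk, a muscle fusion protein), 0.32 (Myf5, a muscle determination factor), 0.57 (Cnmd, chondromodulin), 0.89 (Hapln1, a cartilage link protein), 0.42 (Dlx1) and 0.39 (Neurod1), both factors of neural precursors, 0.46 (Dct, a pigment cell enzyme), 0.41 (Pou4f1, a sensory neuron factor), -0.18 (Dsp) and -0.20 (Krt5), both of epithelium, -0.46 (Pitx3, a lens factor), 0.20 (Crybb1, a crystallin), -0.36 (Emx2) and 0.35 (Eya1), both of the early kidney. The sign of Krt5 turned without knockout replicate 1 or wild type replicate 1. Postn and Dcn, matrix proteins of mesenchyme, had the highest t of their list. Postn read 7.10 and 8.12 in wild type against 8.62 and 8.88 in knockout, and Dcn read 7.92 and 8.79 against 9.31 and 9.76. In both genes the groups did not overlap, and the wild-type replicates were themselves far apart.

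**Figure D4:**
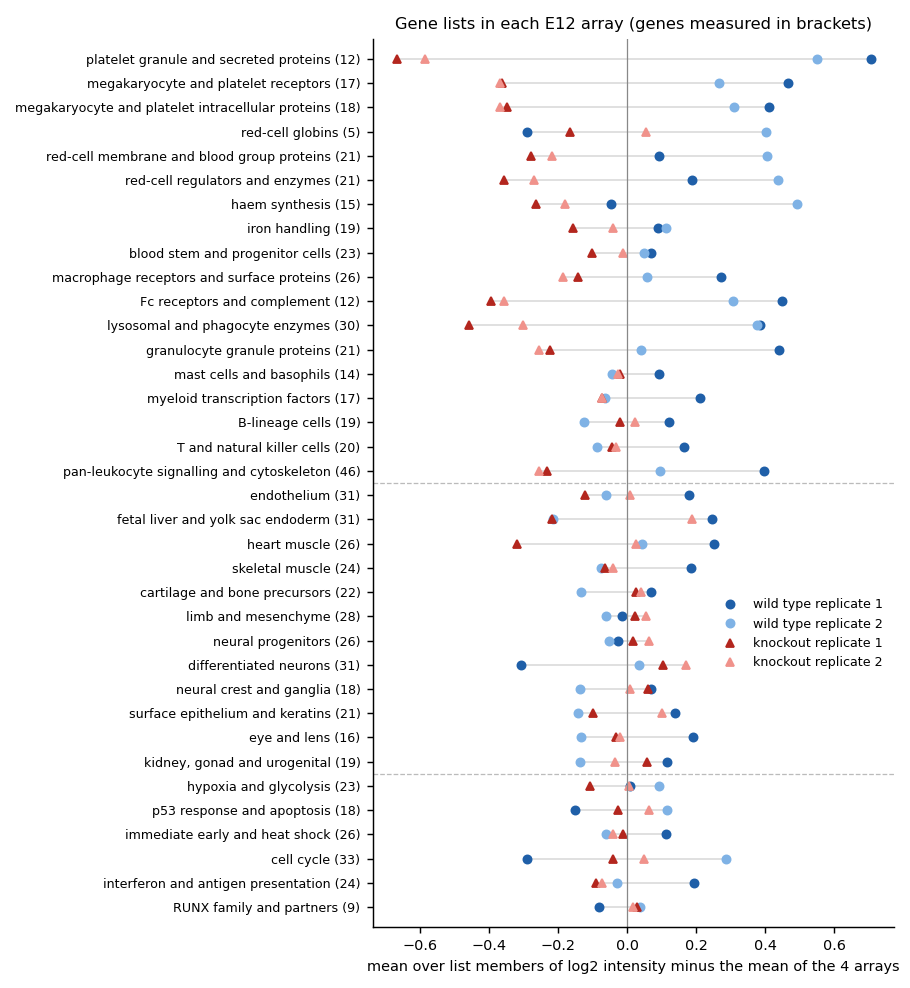
Mean over each list's genes of the log2 intensity minus that gene's mean over the 4 E12 arrays (x axis), for 36 lists ordered as blood, tissue and process lists with dashed lines between them. Both knockout triangles lie left of both wild-type circles for the platelet, macrophage, granulocyte, pan-leukocyte and most red-cell lists, whereas wild-type and knockout symbols interleave for most tissues, and wild type replicate 1 stands to the left of the other arrays for differentiated neurons and the cell cycle.

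Genes of differentiated neurons leaned the other way, with 25 of 31 higher by sign, 1 past an absolute t of 3 and a median of 0.15. Gpm6a, a membrane glycoprotein of growing axons, read 5.61 and 6.32 in wild type against 6.75 and 7.21 in knockout (difference 1.01, SE 0.34). Snap25, a protein of synaptic vesicle release, read 4.21 and 5.52 against 5.54 and 5.90, Dcx, a microtubule protein of young neurons, 7.46 and 8.81 against 8.93 and 8.98, and Slc17a6, the vesicular glutamate transporter, 5.39 and 6.90 against 6.83 and 7.05. In these 3 genes wild type replicate 1 was far below the other 3 arrays. The list's median difference was 0.26 against wild type replicate 1 and 0.11 against replicate 2.

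The 44 genes higher past an absolute t of 3 were smaller steps than the lower ones, with a median difference of 0.66 and a range of 0.47 to 1.46, against a median of -0.89 for the 133 lower genes. Wild type replicate 1 was the lowest of the 4 arrays in 34 of the 44. Pigp, a part of the enzyme that starts the glycosylphosphatidylinositol anchor, was the single higher gene with a gap, at 8.19 and 8.91 in wild type against 9.97 and 10.05 in knockout (difference 1.46, SE 0.26, t = 5.69). At E8.5 it read 8.60 and 8.88 in wild type against 9.31 and 9.16 in knockout. Pigp lies on chromosome 16, as do Runx1 itself and Cpox, a lower gene with a gap. A role of DNA inherited together with the knockout allele was not tested. Lin7a, a scaffold of nerve cell junctions, read 5.84 and 6.80 against 7.59 and 7.43, and Epha3, an axon guidance receptor, 6.98 and 7.76 against 8.19 and 8.5. Penk, the enkephalin precursor, read 6.29 and 5.86 against 6.84 and 6.89, and Fap, a surface protease of mesenchyme, 7.10 and 7.97 against 8.45 and 8.5. Itih5, a matrix-binding protein, read 5.28 and 5.25 against 5.89 and 6.22, with wild-type replicates almost equal. The other genes among the first 12 were 5530601H04Rik (difference 1.18), Zfp58 (1.12), Cep290 (0.95), Tex15 (0.89) and Pdp1 (0.83). None of the higher genes reached an adjusted p below 0.05.

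**Figure D5:**
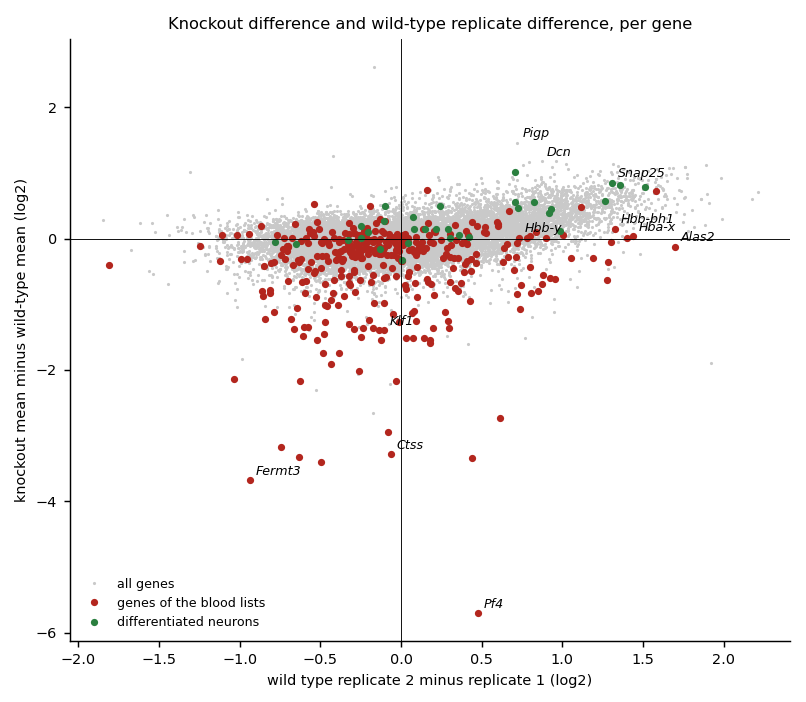
Each point is 1 gene, with wild type replicate 2 minus replicate 1 on the x axis and the knockout mean minus the wild-type mean on the y axis (both log2). Lower blood genes such as Pf4, Ctss, Klf1 and Fermt3 lie on both sides of 0 on the x axis, embryonic globins and Alas2 sit to the right near 0 on the y axis, and Snap25 lies to the right and above 0.

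Process lists differed little between the genotypes. Of 23 hypoxia and glycolysis genes 12 were lower by sign with a median of -0.0045 (by replicate -0.01 and -0.18). Pdk1, which holds pyruvate out of the mitochondrion, passed the study's threshold, at 6.71 and 6.81 against 6.34 and 5.86. Of its 4 probe sets 3 were lower. The p53 targets had a median of 0.09 (by replicate 0.10 and -0.06), immediate early and heat shock genes of -0.08 (-0.10 and 0.06) and interferon and antigen presentation genes of -0.13 (-0.27 and -0.08) with 21 of 24 lower, and 0 genes of these 3 lists passed. Cell cycle genes had a median of -0.07 (by replicate 0.11 and -0.31), with wild type replicate 2 above replicate 1 by a median of 0.54. In 12 of 33 genes both knockout arrays lay between the wild-type replicates, as in 14 of 28 limb and mesenchyme genes. That share was not computed over all genes. Cdt1, which licenses replication origins, read 9.95 and 10.24 against 9.58 and 9.56 (t = -2.91), and Aurkb, a mitotic kinase, 8.13 and 8.05 against 7.56 and 7.73. The highest absolute t of each of the other 3 lists belonged to Gadd45a, a DNA damage gene (7.37 and 7.98 against 7.02 and 6.94), to Jund, a part of the AP-1 factor (9.20 and 9.03 against 8.71 and 8.79), and to Ifi35, an interferon-induced gene (7.44 and 7.04 against 6.56 and 6.27). The next in each, Bbc3, Myc and Ciita, differed by -0.30, -0.80 and 0.42. Of the RUNX family and its partners 4 of 9 were lower and 0 passed, and Cbfb read 9.5 and 10.34 against 9.88 and 10.17 and Runx1t1, a corepressor, 6.46 and 7.22 against 7.25 and 7.20. The sex-linked genes followed knockout replicate 2: Kdm5d read 4.93 and 4.86 in wild type against 5.38 and 3.57 in knockout, and Uty 6.05 and 6.45 against 6.53 and 5.10. Of the 53 genes with a gap, Gata1 and Btk lie on the X chromosome, and in both the male knockout replicate was as low as the female one or lower.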

How the data were processed

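RNA was extracted with Trizol, amplified and hybridized to Affymetrix mouse expression arrays with 1 colour (8 arrays, 2 per group). The deposited intensity values, on the linear scale, were made by the authors with Robust Multi-array Analysis (RMA), which corrects background, normalizes and summarizes probes. The sources used here state neither software versions nor whether all arrays were normalized together. RMA shrinks differences of dim probe sets, and precision is limited by how few arrays there are.

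Each intensity was transformed to log2 with no pseudocount and no filter. Of 45101 probe sets, 64 controls were left out. Of the 45037 tested, 34945 had 1 gene symbol in the platform annotation (updated through RefSeq, GRCm38.p6), 932 several and 9160 none, covering 18193 genes. A gene was represented by its probe set with the highest mean over 8 arrays. The fit used limma 3.58.1 under R 4.3.3 (4 group means, all arrays, eBayes) with Benjamini-Hochberg adjustment over 45037 probe sets and a threshold of 0.05. The fit was tested on simulated data. An absolute moderated t above 3 is the threshold of the study's methods.

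The 37 gene lists (838 genes, 776 measured), the comparison and the naming rule were chosen with earlier results of these data known. Named were called probe sets, the first 12 lower and 12 higher genes by difference past an absolute t of 3, up to 6 members of each list past it or, failing any, the top 2 by absolute t, all globin and sex-linked genes, and Runx1. Genes beyond this rule, including list members that give contrast and those with a gap, were chosen after their values were seen. Replicate numbers named samples only: deviations of same-numbered arrays from their group means correlated at r = 0.173 at E12 and 0.372 at E8.5. Alternatives were E12 alone, a block, array weights, a trended robust prior, quantile normalization, 16 added before log2, a filter at mean log2 of 6, all probe sets of a gene and leaving out each array. Figures were drawn with matplotlib.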

Additional observations from a re-analysis of the deposited data

Results flagged for a closer look

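The knockout difference of 2 genes was not the same at E12 as at E8.5, by the test of the difference itself over all 45037 probe sets. For Pf4 the E12 difference minus the E8.5 difference was -5.53 (limma adjusted p = 0.0202), as the E8.5 arrays read 5.27 and 5.08 in wild type and 5.0 in both knockout arrays. For Ctss it was -3.43 (limma adjusted p = 0.0381), as the E8.5 arrays read 4.43 and 4.22 in wild type against 4.46 and 4.47 in knockout.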

How the results depend on the processing

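The count of 6 called probe sets became 2 in E12 arrays alone, 2 with the replicate number as a block, 0 with that block set within each stage (chosen after seeing the data), 1 among probe sets with a mean log2 of at least 6, and 0 to 12 when single arrays were left out. The replicate numbers do not pair the arrays by any label. Over all alternatives the limma adjusted p was 0.000118 to 0.114 for Pf4, 0.00114 to 0.272 for Ctss, 0.00219 to 0.800 for Ppbp, 0.00219 to 0.844 for Lyz1 and 0.00473 to 0.808 for Tubb1, highest in each when an E12 knockout replicate was left out. With the replicate block that of Ppbp, Lyz1 and Tubb1 was 0.0551, and with the block within each stage that of Pf4 was 0.0502, of Ctss, Ppbp and Tubb1 0.147 and of Lyz1 0.156, and none of these 5 differences changed sign. Leaving out 1 array of a group leaves the other assumed to vary like the remaining groups. The 295 probe sets past an absolute t of 3 became 648 in E12 alone, 560 with the block within each stage, 464 with quantile normalization, 504 with 16 added, 29 with the filter and 129 to 2131 when arrays were left out. The 66 lower probe sets with a gap became 36 with 16 added and 27 with the filter, and the 2 higher ones 1 and 1. Leaving out single E12 arrays gave 84 to 175 lower and 4 to 1106 higher probe sets with a gap, the most without wild type replicate 2, and 104 lower without replicate 1. Of 18 blood lists 17 had a median below 0, against 11 with the filter and 15 without wild type replicate 1. Of the 19 tissue and process lists 13 also had a median below 0, and 9 to 15 in the alternatives. Leaving out single arrays moved the difference of Hbb-bh1 from -0.51 to 0.82, of Hbb-y from -0.35 to 0.38 and of Hba-x from -0.68 to 0.76 (lowest without wild type replicate 1, highest without replicate 2), of Hba-a1 from -0.088 to 0.33, of Krt5 from -0.48 to 0.076, of Eif2s3y from -4.58 to 0.80, of Kdm5d from -1.32 to 0.48, of Uty from -1.15 to 0.28 and of Runx1 from -0.076 to 0.59. Hbb-y also turned to -0.067 with quantile normalization and Runx1 to -0.039 over all its probe sets. The cause of these moves was not tested. Depth cannot be given for arrays, and without detection calls the level below which a value is background is unknown.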
